A study of Mus musculus with 8 samples.

Results

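Leukocyte integrins were examined in blood monocytes (MCs) of control and diabetic mice through 10 genes, *Itgal*, *Itgam*, *Itgax*, *Itgb2*, *Itga4*, *Itgb1*, *Itgb7*, *Itga5*, *Itga6* and *Itgb5*. They were taken by symbol from a deposited bulk RNA-Seq matrix of 16486 genes, and all 10 were present. The 8 libraries comprised 2 for each subset, Ly6Chigh and Ly6Clow, of CT mice, and 1 for each subset of T1DM and of T2DM mice. CT mice were wild-type C57/BL6. T1DM mice were C57/BL6 mice that received streptozotocin (STZ), a toxin of the pancreatic beta cell, at 50 mg/kg on each of 5 days, starting at 8 weeks of age. The T2DM model was the db/db strain, which carries a mutated leptin receptor and becomes obese. All mice were male and 20 to 22 weeks old. MCs were sorted as CD11b+ Ly6G- cells and split by Ly6C, so the protein product of *Itgam* was itself a sorting marker of both subsets. RNA of 5 mice per group was pooled and sequenced in duplicate, so the spread between CT libraries need not hold any difference between mice. Libraries of CT mice were read on a NextSeq 500 and those of both diabetic models on a HiSeq 4000, and these differences of instrument and of disease cannot be told apart.

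Integrins are heterodimers of an alpha and a beta chain that hold a cell to other cells and to matrix. The beta2 chain, encoded by *Itgb2*, pairs with the alpha chains of *Itgal* (LFA-1, the ICAM receptor of crawling leukocytes), *Itgam* (Mac-1, or CD11b, a receptor for complement fragments, fibrinogen and ICAM-1) and *Itgax* (CD11c, which marks dendritic cells and some MCs). The alpha4 chain of *Itga4* pairs with beta1 (*Itgb1*) as VLA-4, the receptor for VCAM-1 and fibronectin, or with beta7 (*Itgb7*) as the gut-homing receptor for MAdCAM-1. The alpha5 chain (*Itga5*) and the alpha6 chain (*Itga6*) pair with beta1 as receptors for fibronectin and laminin. The beta5 chain (*Itgb5*) pairs with alphaV and binds vitronectin.

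The subset labels were checked against marker genes. *Ly6c2*, which encodes Ly6C itself, was 8.56 to 8.72 on the deposited log2 scale in the 4 Ly6Chigh libraries and 2.69 to 4.07 in the 4 Ly6Clow libraries. Of 8 classical MC markers, 7 were called higher in Ly6Chigh MCs, and of 10 nonclassical markers 6 were called lower. Not every nonclassical marker followed the label. *Cx3cr1*, a chemokine receptor of patrolling MCs, was 8.59 and 8.61 in CT Ly6Chigh but 7.76 and 7.78 in CT Ly6Clow libraries. The T1DM libraries ran the same way (8.63 in Ly6Chigh, 7.72 in Ly6Clow), and those of T2DM followed the label (7.97 in Ly6Chigh, 8.14 in Ly6Clow). The Ly6Clow libraries also carried lymphocyte transcripts. The summed linear value of 12 B cell markers was 5720 and 5750 in CT Ly6Clow, 6360 in T1DM Ly6Clow and 6930 in T2DM Ly6Clow MCs, against 321 to 717 in the Ly6Chigh libraries, with the immunoglobulin gene *Ighm* the most abundant. All 12 were called lower in Ly6Chigh MCs. The sum of 10 natural killer (NK) cell markers was 717 and 703 in CT Ly6Clow, 983 in T1DM Ly6Clow and 190 in T2DM Ly6Clow MCs, against 31.3 to 139 in Ly6Chigh, and all 10 were called lower in Ly6Chigh. *Gzma*, the granzyme A gene, was the most abundant of them. The neutrophil markers *Ly6g*, *Elane* and *Camp* had no entry in the matrix analysed. The part of these other cell types in the integrin results below was not tested. In bulk RNA, fewer cells of a type and less RNA per cell cannot be told apart.

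Between the subsets, the fibronectin receptor chain *Itga5* and the CD11b gene *Itgam* were higher in Ly6Chigh MCs, and the CD11c gene *Itgax* was higher in Ly6Clow MCs. The 4 Ly6Chigh and 4 Ly6Clow libraries did not overlap for 7 of the 10 genes, 5 of them higher in Ly6Chigh (*Itgam*, *Itgb2*, *Itgb7*, *Itga5*, *Itgb5*, with the *Itgb2* difference reversed after quantile normalization) and 2 higher in Ly6Clow (*Itgax*, *Itgb1*). Such a separation held for 32.8% of all genes and for 45.9% of the 5228 genes whose log2 values averaged 5 or more. With libraries rescaled to an equal sum, Ly6Chigh minus Ly6Clow for *Itgb2* was 0.173 (CT), -0.126 (T1DM) and -0.091 (T2DM). For *Itgb5* it was 0.596, -0.024 and -0.017 in the same order, so the separation of both genes depends on the scaling. In the pooled test, which compared the subsets over all 8 libraries with mouse group as covariate, calls required an adjusted p under 0.01 together with an absolute log2 fold change (log2FC) above 1. By limma, 2 integrin genes were called higher (*Itga5*, *Itgam*) and 1 lower (*Itgax*) in Ly6Chigh MCs, and 12.1% of all genes were called, 5.37% higher and 6.76% lower. The median log2FC of the 10 genes was 0.22, against -0.08 over all genes. At an adjusted p under 0.01 and any fold, 5 of the 10 passed, against 20.3% of all genes.

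**Figure D1:**
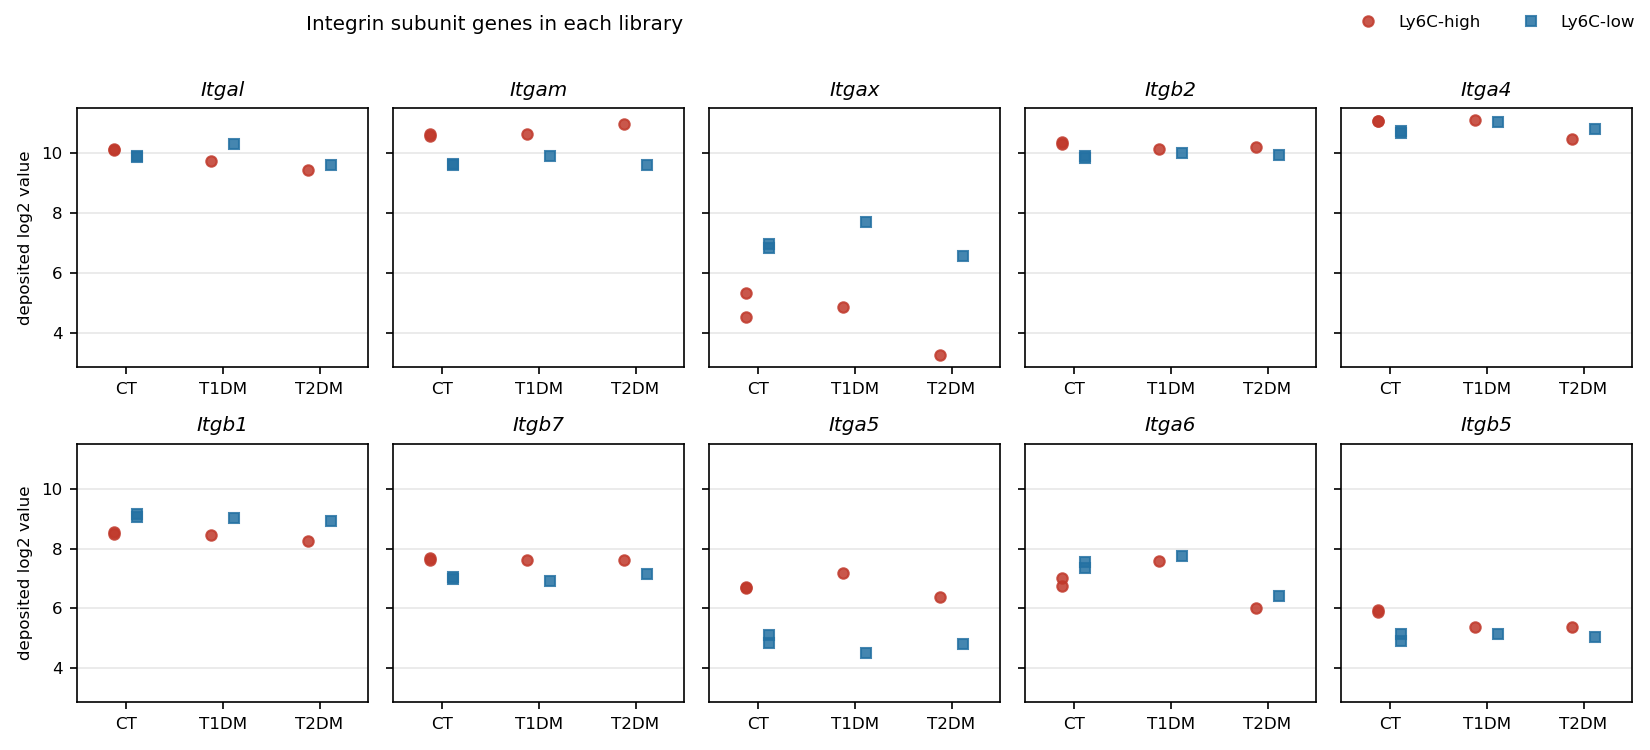
Deposited log2 value of each integrin gene (vertical axis) in each library, by mouse group (horizontal axis); red circles are Ly6Chigh and blue squares Ly6Clow MCs, and CT has 2 libraries per subset. Subsets stand apart for *Itga5*, *Itgam* and *Itgax*, while *Itgal*, *Itga4* and *Itga6* overlap, and both T2DM points of *Itga6* are the lowest of their subset.

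Among the beta2 integrins, *Itgam* was 10.60 and 10.65 in CT Ly6Chigh, 10.66 in T1DM Ly6Chigh and 10.98 in T2DM Ly6Chigh MCs. It was 9.62 and 9.64 in CT Ly6Clow, 9.90 in T1DM Ly6Clow and 9.62 in T2DM Ly6Clow MCs. Every Ly6Chigh library therefore lay above every Ly6Clow library. The pooled log2FC was 1.03 (SE 0.0945, adjusted p = 7.05e-05 by limma, 8 libraries), which sits just past the 2-fold limit. The call was lost at 0.92 without both T2DM libraries at 0.60 after quantile normalization and at 0.73 when libraries were rescaled to an equal sum, which moved the median of all genes from -0.08 to -0.38. The direction was kept in all 3. *Itgam* shares 68.1% of its 31-base sequences with the overlapping locus *Gm49368*, whose own log2 values were 2.37 to 4.44. That locus made up 0.651% to 1.61% of the summed linear value, and the difference in means was 1.025 with it added, an alternative chosen after seeing the data.

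*Itgax* ran the other way. It was 5.33 and 4.52 in CT Ly6Chigh, 4.87 in T1DM Ly6Chigh and 3.25 in T2DM Ly6Chigh MCs. The Ly6Clow libraries held 6.97 and 6.84 (CT), 7.71 (T1DM) and 6.58 (T2DM). The subsets did not overlap, and the T2DM Ly6Chigh library was the lowest of all 8. The pooled log2FC was -2.53 (SE 0.26, adjusted p = 0.000128 by limma), the largest change in size among the 10 genes. The 2 CT Ly6Chigh libraries differed by 0.81, more than for any other gene of the set. *Itgax* shares 10.7% of its 31-base sequences with other genes, mostly with *Itgad*, its neighbour. Of 7 dendritic cell markers measured, 6 were lower in Ly6Chigh MCs in the pooled test, 3 of them called, with a median log2FC of -1.17 that was -0.14 in CT mice alone. Their sum was 186 and 196 in CT Ly6Chigh and 222 and 227 in CT Ly6Clow, 213 and 342 in the T1DM libraries, and 95.8 and 389 in those of T2DM, with *Dpp4* the most abundant and no entry for *Xcr1*. The part of dendritic cells in the *Itgax* difference was not tested.

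The common beta chain *Itgb2* moved little. Its Ly6Chigh values were 10.32 and 10.37 (CT), 10.14 (T1DM) and 10.22 (T2DM), against Ly6Clow values of 9.86 and 9.92 (CT), 10 (T1DM) and 9.95 (T2DM). The subsets did not overlap, though the gap between the closest libraries, T1DM Ly6Chigh and T1DM Ly6Clow, was narrow. The pooled log2FC of 0.33 (SE 0.077) had an adjusted p of 0.0104 by limma, and it reversed to -0.085 after quantile normalization. *Itgal* was 10.16 and 10.11 in CT Ly6Chigh, 9.76 in T1DM Ly6Chigh and 9.45 in T2DM Ly6Chigh, against 9.90, 9.87, 10.32 and 9.63 in Ly6Clow. Its subsets overlapped, with a pooled log2FC of -0.06 (95% interval -0.35 to 0.24, adjusted p = 0.763 by limma).

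*Itgam* and *Itgax* are neighbours on chromosome 7 of the mm10 (GRCm38) genome. In the GENCODE M21 annotation *Itgam* spans chr7:128062640-128118491 on the plus strand, *Itgax* chr7:128129547-128150657 on the plus strand, 11.1 kb further on, and *Itgad* chr7:128154376-128223816 on the plus strand. *Itgal* lies at chr7:127296260-127335138 on the plus strand, 728 kb before *Itgam*. On the same annotation *Itgb2* spans chr10:77530252-77565708, *Itga4* chr2:79255426-79333123, *Itga6* chr2:71745616-71858416, *Itgb1* chr8:128685654-128733200 and *Itgb5* chr16:33829665-33949338, all on the plus strand. *Itgb7* spans chr15:102215995-102231944 and *Itga5* chr15:103344286-103366763, both on the minus strand. The adjacent pair *Itgam* and *Itgax* thus changed in opposite directions between the subsets.

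The 250 bases before the annotated start are shown for the 3 called genes, because 2 of them were higher and 1 lower in Ly6Chigh MCs. The sequences are RefSeq's on GRCm38.p6, printed 5′ to 3′ on the gene's own strand. Capitals mark GAGGAA, a purine-rich element of the kind bound by the myeloid factor PU.1, and GGGCGG, a GC box, on either strand, so that TTCCTC and CCGCCC are the same elements read on the other strand.
Itgam, chr7:128062390-128062639, plus strand: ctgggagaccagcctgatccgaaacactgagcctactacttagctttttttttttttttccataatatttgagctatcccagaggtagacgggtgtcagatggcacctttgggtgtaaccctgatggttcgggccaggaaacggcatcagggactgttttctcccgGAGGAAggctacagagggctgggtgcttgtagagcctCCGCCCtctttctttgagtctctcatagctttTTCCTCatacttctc
Itgax, chr7:128129300-128129549, plus strand: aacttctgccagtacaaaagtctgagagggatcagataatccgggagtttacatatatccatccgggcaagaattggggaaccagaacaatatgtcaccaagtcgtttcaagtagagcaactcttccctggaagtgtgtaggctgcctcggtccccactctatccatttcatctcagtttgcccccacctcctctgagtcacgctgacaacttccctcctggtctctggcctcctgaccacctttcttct
Itga5, chr15:103366792-103367041, minus strand: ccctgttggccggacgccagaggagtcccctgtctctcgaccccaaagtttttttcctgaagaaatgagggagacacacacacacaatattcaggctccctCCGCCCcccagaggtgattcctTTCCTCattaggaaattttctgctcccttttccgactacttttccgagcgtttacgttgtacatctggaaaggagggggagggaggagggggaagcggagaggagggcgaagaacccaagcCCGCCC
GAGGAA occurred 2 times before *Itgam*, 1 time before *Itga5* and 0 times before *Itgax*. GGGCGG occurred 1 time before *Itgam*, 2 times before *Itga5* and 0 times before *Itgax*. Among the other 4 promoters, *Itgb1*, higher in Ly6Clow, had 1 of each, and *Itgb7*, higher in Ly6Chigh, had 0 of each. *Itgb5*, higher in Ly6Chigh on the deposited scale but not called, had 0 GAGGAA and 3 GGGCGG. *Itga4*, whose subsets overlapped, had 0 and 1. Of 32851 promoters of the same length, 23.3% hold GAGGAA and 32.7% hold GGGCGG. A match is a run of letters and not evidence of binding. Promoter entries were found for 7 of the 10 genes, and *Itgal*, *Itgb2* and *Itga6* had none.

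*Itga5* was 6.67 and 6.73 in CT Ly6Chigh, 7.18 in T1DM Ly6Chigh and 6.39 in T2DM Ly6Chigh MCs. It was 5.11 and 4.84 in CT Ly6Clow, 4.51 in T1DM Ly6Clow and 4.81 in T2DM Ly6Clow MCs. The subsets did not overlap, and the T1DM mice gave both the highest and the lowest library. The pooled log2FC was 1.93 (SE 0.183, adjusted p = 8.44e-05 by limma). *Itga5* also passed in CT mice alone, the comparison of 2 with 2 libraries, with a log2FC of 1.73 (SE 0.13, adjusted p = 0.00866 by limma), where 3.52% of all genes were called. It was the only one of the 10 called there, and no gene was called once any CT library was left out, the replicate number was added as a block or the variance trend was dropped. *Itgam* had a log2FC of 0.995 and an adjusted p of 0.00323 by limma in CT mice, just under the fold limit.

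The partner chain *Itgb1* had Ly6Chigh values of 8.50 and 8.55 (CT), 8.44 (T1DM) and 8.26 (T2DM), and Ly6Clow values of 9.05 and 9.17 (CT), 9.02 (T1DM) and 8.91 (T2DM). All Ly6Chigh libraries were below all Ly6Clow libraries. The pooled log2FC was -0.60 (SE 0.0705, adjusted p = 0.000279 by limma), under the fold limit. *Itga6* was 6.74 and 7.01 in CT Ly6Chigh and 7.35 and 7.54 in CT Ly6Clow MCs, with a pooled log2FC of -0.43 (SE 0.113, adjusted p = 0.0194). Its subsets overlapped once the diabetic libraries, described below, were included.

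*Itgb7* had Ly6Chigh values of 7.68 and 7.63 (CT), 7.62 (T1DM) and 7.61 (T2DM), and Ly6Clow values of 7.05 and 6.99 (CT), 6.91 (T1DM) and 7.16 (T2DM). The 4 Ly6Chigh values were nearly equal and lay above all Ly6Clow values, with a pooled log2FC of 0.61 (SE 0.084, adjusted p = 0.000674 by limma). *Itga4*, which can pair with beta1 or beta7, was 11.10 and 11.07 in CT Ly6Chigh and 10.76 and 10.69 in CT Ly6Clow MCs, but 10.47 in T2DM Ly6Chigh against 10.82 in T2DM Ly6Clow. The subsets overlapped, and the pooled log2FC was 0.11 (95% interval -0.16 to 0.37, adjusted p = 0.526). *Itgb5* had Ly6Chigh values of 5.88 and 5.93 (CT), 5.38 (T1DM) and 5.39 (T2DM), against Ly6Clow values of 4.92 and 5.13 (CT), 5.14 (T1DM) and 5.05 (T2DM). The subsets did not overlap on the deposited scale, and the pooled log2FC was 0.59 (SE 0.151, adjusted p = 0.0169 by limma).

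**Figure D2:**
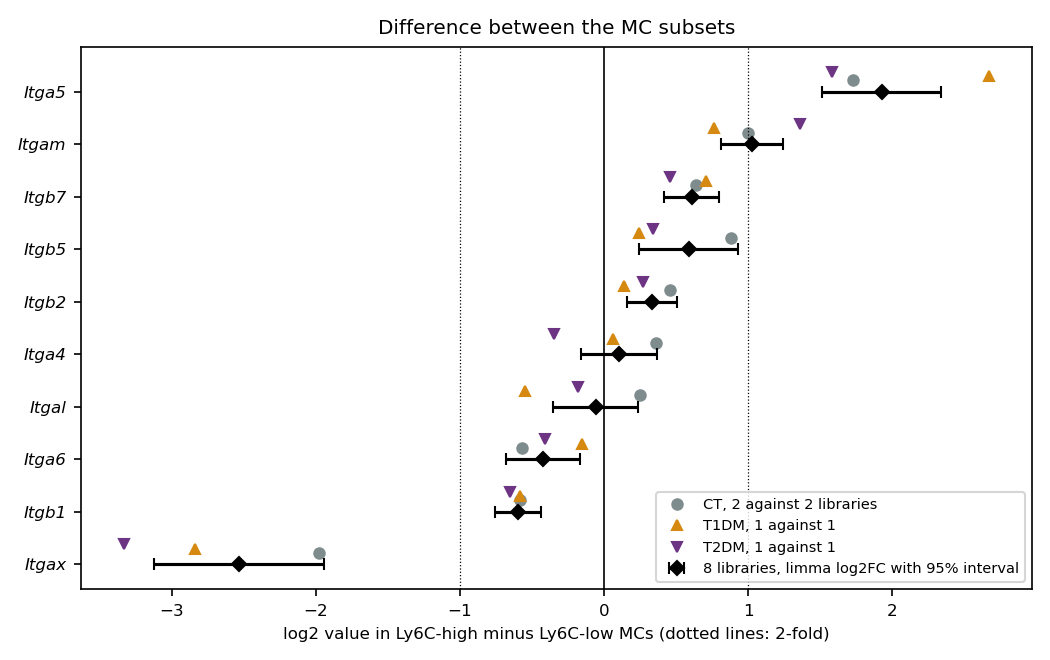
Difference of the log2 value, Ly6Chigh minus Ly6Clow (horizontal axis), for the 10 integrin genes (vertical axis). Black diamonds with bars are the pooled log2FC and its 95% interval, and grey, orange and purple symbols are the CT, T1DM and T2DM differences. *Itga5* at 1.93 and *Itgax* at -2.53 lie farthest from 0, and *Itgal* and *Itga4* have differences of either sign.

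The study's methods name gene counts and length-scaled TPM values as outputs of the import step, and which of them the deposited values were made from was not given in the sources used here. Levels of different genes are compared here after subtracting log2 of the coding length in kilobases. Across 11922 genes, which are not independent replicates, Spearman's rho of the mean log2 value with coding length was 0.156 before the subtraction and -0.304 after it, and these values do not settle whether the subtraction is needed. With no length subtracted, an alternative chosen after seeing the data, *Itgam* came before *Itgb2* in Ly6Chigh MCs and *Itga6* before *Itgb7* in Ly6Clow MCs, and the other places were the same in both subsets. On this log2 scale per coding kilobase, *Itga4* was the highest of the 10 in Ly6Chigh MCs at 9.31 ± 0.31 (SD, n = 4 libraries), followed by *Itgb2* at 9.06 ± 0.11 and *Itgam* at 8.91 ± 0.17. These neighbours differed by no more than their spread. *Itgal* followed at 8.02 ± 0.33, *Itgb1* at 7.18 ± 0.12 and *Itgb7* at 6.36 ± 0.03. The lowest were *Itga6* at 5.13 ± 0.66, *Itga5* at 5.08 ± 0.33, *Itgb5* at 4.35 ± 0.30 and *Itgax* at 2.68 ± 0.89, of which *Itga6* and *Itga5* did not differ beyond their spread.

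In Ly6Clow MCs the level per coding kilobase of *Itga4* was 9.20 ± 0.16 (SD, n = 4 libraries), of *Itgb2* 8.72 ± 0.06, of *Itgal* 8.08 ± 0.29, of *Itgam* 7.89 ± 0.14 and of *Itgb1* 7.78 ± 0.11. *Itgal* stood above *Itgam* here and below it in Ly6Chigh MCs, although in Ly6Clow MCs the pair was within its spread. *Itgb7* was 5.75 ± 0.10, *Itga6* 5.55 ± 0.59 and *Itgax* 5.21 ± 0.48, also within their spread, and *Itgb5* was 3.77 ± 0.10 and *Itga5* 3.16 ± 0.24. *Itga5*, at place 8 in Ly6Chigh MCs, was at place 10 in Ly6Clow MCs, while *Itgax* went from place 10 to place 8. With transcript length in place of coding length, a choice made after seeing the data, the places over all 8 libraries changed for 6 genes. *Itga4* went from place 1 to 4, *Itgb2* from 2 to 1, *Itgam* from 3 to 2, *Itgal* from 4 to 3, *Itga5* from 8 to 10 and *Itgax* from 10 to 8.

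Shares within a group of chains do not change when a whole library is scaled up or down. Of the summed linear value per coding kilobase of *Itgal*, *Itgam* and *Itgax*, *Itgam* took 57.4% and 59.3% in CT Ly6Chigh, 64.9% in T1DM Ly6Chigh and 74.6% in T2DM Ly6Chigh MCs. Its share of the Ly6Clow libraries was 42.8% and 43.7% (CT), 39.7% (T1DM) and 47.7% (T2DM). *Itgal* made up most of the rest, with 25.1% to 41.1% in Ly6Chigh and 46.5% to 51.6% in Ly6Clow libraries. *Itgax* took 0.351% to 1.48% in Ly6Chigh and 5.79% to 8.69% in Ly6Clow libraries. None of these shares overlapped between the subsets, and in each of the 3 mouse groups *Itgam* had the larger share in Ly6Chigh MCs and *Itgal* and *Itgax* in Ly6Clow MCs.

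Of *Itgb1* plus *Itgb7*, the chains that compete for alpha4, *Itgb7* took 34.4% to 38.7% in Ly6Chigh and 17.9% to 22.7% in Ly6Clow libraries. Of *Itga4*, *Itga5* and *Itga6*, *Itga5* took 4.16% to 5.6% in Ly6Chigh and 0.949% to 1.76% in Ly6Clow libraries. Neither share overlapped between subsets, with coding or with transcript length. The share of *Itga6* overlapped, from 3.88% to 7.23% in Ly6Chigh and from 4.19% to 9.47% in Ly6Clow libraries.

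**Figure D3:**
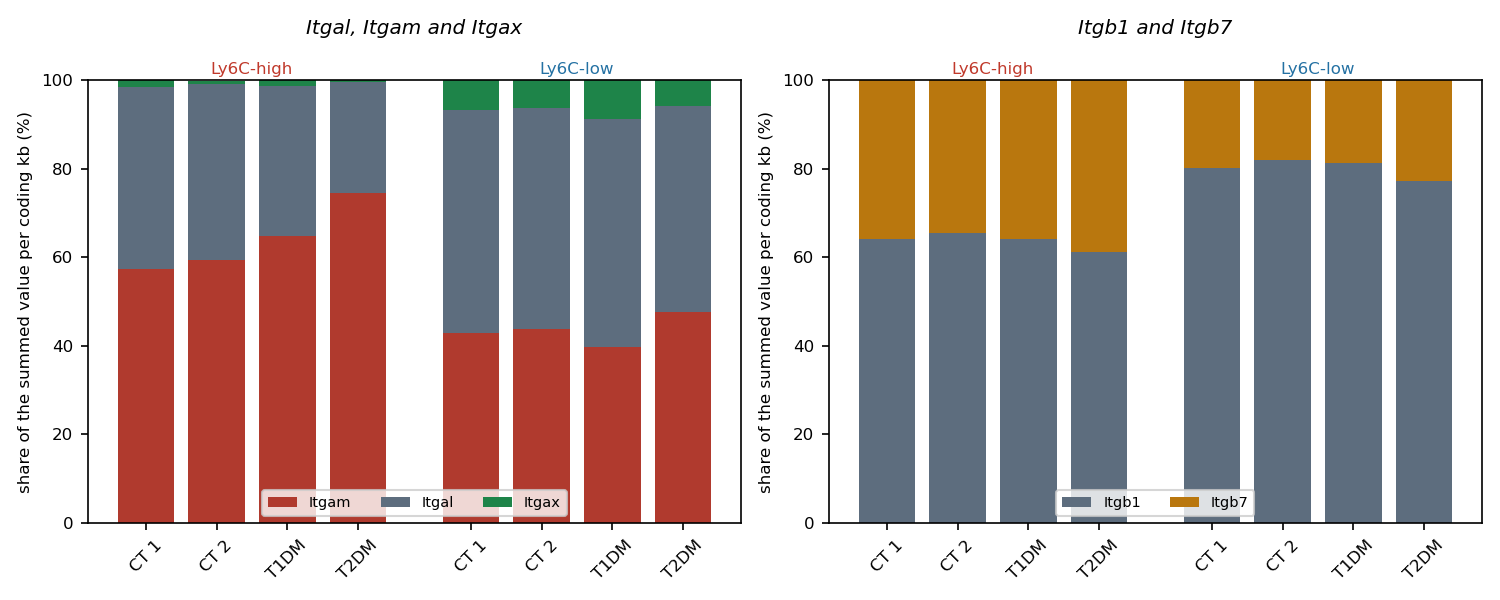
Stacked shares in percent of the summed linear value per coding kilobase (vertical axis) in each of 8 libraries (horizontal axis, Ly6Chigh left and Ly6Clow right), for *Itgam*, *Itgal* and *Itgax* (left panel) and for *Itgb1* and *Itgb7* (right panel). The *Itgam* share reaches 74.6% in T2DM Ly6Chigh MCs and no more than 47.7% in any Ly6Clow library.

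The effect of each diabetic model was tested over both subsets, with 2 diabetic libraries against 4 CT libraries or 2 against 2. The 2 libraries of a model are its 2 subsets from the same group of 5 pooled mice. Differences between mice of a model are thus not measured, and the p-values rest on the scatter left between libraries. *Itga6*, the laminin receptor chain, was the only one of the 10 genes called in any of these tests. Beside the CT values given above, it was 7.6 in T1DM Ly6Chigh, 7.75 in T1DM Ly6Clow, 6.00 in T2DM Ly6Chigh and 6.41 in T2DM Ly6Clow MCs. In each subset T1DM was above and T2DM below both CT libraries. T2DM minus T1DM gave a log2FC of -1.47 (SE 0.16, adjusted p = 0.00287 by limma), where 0.588% of all genes were called and 0.388% called lower. This pair of models shared a sequencer. The call was lost without the variance trend, at an adjusted p of 0.0597, and without CT_Ly6Clow replicate 1, at 0.0115, with the log2FC at -1.47 in both.

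Against CT, *Itga6* had a log2FC of -0.95 in T2DM MCs (SE 0.139, adjusted p = 0.0176 by limma) and of 0.51 in T1DM MCs (SE 0.139, adjusted p = 0.845 by limma). These comparisons share their CT libraries. None of the 10 genes was called in either, where 0.297% and 0% of all genes were called, and in T1DM minus CT 551 genes had an unadjusted p under 0.05, *Itga6* among the 10 integrins. Both T2DM libraries were the lowest of their subset for 4 of the 10 genes, *Itgal*, *Itgax*, *Itgb1* and *Itga6*, against 9.85% of all genes. For 3 genes, *Itgam*, *Itga4* and *Itga6*, the T1DM library was above both CT libraries in both subsets, against 10.6% of all genes.

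The other T2DM minus T1DM differences were smaller or less certain. *Itgax* had a log2FC of -1.37 (95% interval -2.21 to -0.54, adjusted p = 0.123 by limma), *Itgal* -0.50 (adjusted p = 0.257) and *Itga4* -0.43 (adjusted p = 0.272). *Itgam* differed by 0.02 (95% interval -0.28 to 0.33) and *Itgb2* by 0.02 (95% interval -0.23 to 0.27). The median over the 10 genes was -0.19, against 0.00 over all genes.

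Platelet, erythroid and NK cell transcripts moved with *Itga6*, whose alpha6 chain platelets also carry. The summed linear value of 10 platelet markers was 516 and 480 in CT Ly6Chigh, 401 and 388 in CT Ly6Clow, 830 and 906 in the T1DM libraries (Ly6Chigh and Ly6Clow), and 232 and 257 in those of T2DM. All 10 were lower in T2DM than in T1DM, 1 of them called, with a median log2FC of -1.45. The most abundant, the platelet chemokine gene *Ppbp*, was 8.98 and 9.17 in T1DM and 6.68 and 6.86 in T2DM MCs. None of the platelet markers was at 0. The sum of 6 erythroid markers was 37900 and 31400 in T1DM and 16600 and 16500 in T2DM MCs, with 20600, 20400, 24100 and 24100 in CT, and the beta-globin gene *Hbb-bs* the most abundant. All 6 were lower in T2DM than in T1DM, 2 of them called. The 10 NK cell markers were also all lower in T2DM than in T1DM, 6 of them called, with a median log2FC of -2.29, and 9 of the 10 were above CT in T1DM. Their sums, given above, were highest in T1DM and lowest in T2DM within each subset. The part of platelets, erythroid cells and NK cells in the *Itga6* result was not tested.

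Some integrin chains beyond the 10 were also lower in T2DM than in T1DM MCs. *Itgb3*, the beta chain of the platelet fibrinogen receptor that also pairs with alphaV, was 7.32 and 7.56 in T1DM and 5.50 and 5.86 in T2DM MCs, with 7.00, 7.08, 6.81 and 6.70 in CT. Its T2DM minus T1DM log2FC was -1.76 (SE 0.186, adjusted p = 0.00256 by limma). *Itga2b*, the alpha chain of the platelet fibrinogen receptor, was 5.93 and 5.59 in T1DM and 4.10 and 4.87 in T2DM MCs, and missed the limit at -1.28 (SE 0.265, adjusted p = 0.0506 by limma). *Itga2*, a collagen receptor chain of platelets and of NK cells, as CD49b, was called at -2.52 (SE 0.298, adjusted p = 0.00407 by limma). It was 4.91 and 6.50 in T1DM and 2.63 and 3.73 in T2DM MCs, so both groups were higher in their Ly6Clow library. The part of NK cells and platelets in the *Itga2* values was not tested.

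**Figure D4:**
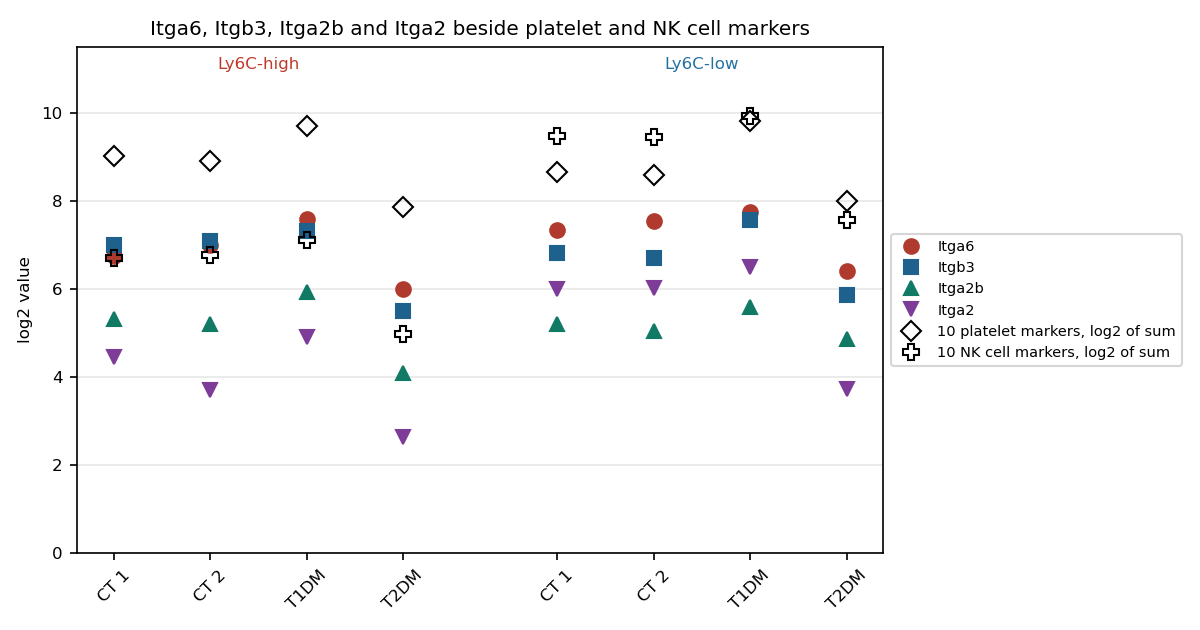
Log2 value (vertical axis) of *Itga6*, *Itgb3*, *Itga2b* and *Itga2* (filled symbols) and log2 of the summed linear value of 10 platelet and of 10 NK cell markers (open symbols) in each library (horizontal axis). All 6 series, the NK cell sum among them, are highest in T1DM and lowest in T2DM within each subset.

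Within a subset, each diabetic library was set against the mean of the 2 CT libraries, without a test since there is 1 diabetic library. Past 2-fold were *Itgax* in T2DM Ly6Chigh MCs, lower by a log2 difference of -1.67, and *Itga6* in T2DM Ly6Clow MCs at -1.04. In T2DM Ly6Chigh MCs 13.8% of all genes, and in T2DM Ly6Clow MCs 10.8%, were past 2-fold. In T1DM MCs 0 of the 10 genes were past 2-fold in either subset, against 10.1% and 8.81% of all genes. These shares rest in part on genes with low values, and nothing is read from the 0 of 10. With 1 added on the linear scale, the genes past 2-fold fell from 1658 to 431 in T1DM Ly6Chigh, from 1453 to 463 in T1DM Ly6Clow, from 2283 to 957 in T2DM Ly6Chigh and from 1775 to 696 in T2DM Ly6Clow MCs, of 16486. The sum of 10 nonclassical MC markers was 1900 and 2010 in CT Ly6Chigh, 1510 in T1DM Ly6Chigh and 853 in T2DM Ly6Chigh MCs, the library in which *Itgax* was lowest. Its most abundant gene, *Ace*, encoding angiotensin-converting enzyme, was 8.82 and 9.0 in CT and 6.75 in T2DM Ly6Chigh MCs. The dendritic cell sum was also lowest in this library, and *Dpp4* was 3.54 there and 5.88 to 6.04 in the other Ly6Chigh libraries. The NK cell sum was 31.3 there against 105 to 139, and the B cell sum 321 against 475 to 717. The sum of 8 classical MC markers was the highest there, at 28800 against 11400 and 11300 in CT and 13700 in T1DM Ly6Chigh MCs, with *Fn1* the most abundant. All 8 were higher in T2DM than in CT MCs over both subsets, 2 of them called by limma. The sum of 8 neutrophil markers was also the highest there, at 854 against 459 to 479, with *Csf3r*, the G-CSF receptor gene, the most abundant. Over both subsets 7 of these 8 were higher in T2DM than in CT MCs, 0 of them called by limma. In T2DM Ly6Chigh MCs *S100a8* was 6.90, against 1.14 to 2.49 in the other Ly6Chigh libraries. *Retnlg* ran the other way, at -1.55 against 1.46 to 3.87, as did *Cxcr2*, at 2.79 against 2.81 to 3.07. *Itgam* had its highest value in the T2DM Ly6Chigh library. The part of such cells in the *Itgax* and *Itgam* values was not tested.

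The subset difference itself varied between mouse groups. For *Itgal*, Ly6Chigh minus Ly6Clow was 0.25 (CT), -0.55 (T1DM) and -0.18 (T2DM). For *Itga4* it was 0.36 (CT), 0.06 (T1DM) and -0.35 (T2DM). The signs of both depend on the scaling between libraries. After quantile normalization *Itgal* was -0.162 in CT, -0.932 in T1DM and -0.648 in T2DM, and *Itga4* was -0.077, -0.257 and -0.96, so that neither changed sign between groups. With libraries rescaled to an equal sum the CT value was -0.035 for *Itgal* and 0.075 for *Itga4*. For *Itgax* it was -1.98 (CT), -2.84 (T1DM) and -3.33 (T2DM), and for *Itga5* 1.73, 2.67 and 1.58 in the same order. The interaction test, which asks whether the difference is unlike in diabetic and CT mice, called 0 genes by limma, with 1084 at an unadjusted p under 0.05. Among the 10, *Itgb5* had the smallest p, with a difference of -0.59 (95% interval -1.12 to -0.06, adjusted p = 0.733 by limma). The intervals of *Itgal* at -0.62 (-1.33 to 0.09) and *Itgax* at -1.11 (-2.98 to 0.76) include 0, so these shifts were not established. Any difference between T1DM and T2DM counts as scatter in this test. It therefore cannot address how each diabetic model differs from CT.

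Of 17 other integrin subunit genes listed, 14 were in the matrix. In the pooled test of the subsets 1 was called higher and 3 lower in Ly6Chigh MCs, against 5.37% and 6.76% of all genes. *Itga1*, a collagen receptor chain, was higher at 2.68 (SE 0.435, adjusted p = 0.00168 by limma), with 6.58 and 6.41 in CT Ly6Chigh but 3.80 and 2.68 in CT Ly6Clow. T2DM Ly6Clow MCs were at 5.20, closer to the Ly6Chigh libraries. *Itgad*, encoding CD11d, a further beta2 partner, was lower at -2.37 (SE 0.432, adjusted p = 0.00308), on values of only -2.60 to 1.92, and shares 17.5% of its 31-base sequences mostly with *Itgax*. *Itgb4*, the partner of alpha6 in epithelium, was lower at -2.06 (adjusted p = 0.00521), again on low values of -1.82 to 0.86. *Itga2* was lower at -1.64 (adjusted p = 0.000461). *Itgav*, the alpha chain that pairs with beta5, did not pass, at 0.05 (95% interval -0.43 to 0.53).

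Of 16 genes that switch integrins on from inside the cell, 1 was called higher and 1 lower in Ly6Chigh MCs, a share near the 12.1% of all genes. *Skap2*, an adaptor of myeloid cells, had a log2FC of 1.01 (adjusted p = 2.9e-05 by limma), and *Skap1*, its T cell relative, had -2.29 (adjusted p = 0.000701). At an adjusted p under 0.01 and any fold, 4 were higher and 2 lower, against 11.4% and 8.95% of all genes. Not called, being under 2-fold, were the talin gene *Tln1*, whose product binds the beta chain tail, at 0.82 (adjusted p = 8.43e-05), the kindlin-3 gene *Fermt3* at 0.54 (adjusted p = 0.00194) and *Rapgef1*, an exchange factor for Rap1, at -0.44 (adjusted p = 0.00454). Of 10 inhibitors and brakes, 0 were called higher, against 5.37% of all genes, and their median log2FC was 0.15. How many of them were called lower is not reported here.

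Of 25 genes for signalling from bound integrins and for adhesion sites, 3 were called higher and 1 lower in Ly6Chigh MCs, against 5.37% and 6.76% of all genes. At an adjusted p under 0.01 and any fold, 11 were higher and 2 lower, against 11.4% and 8.95%. Their median log2FC was 0.47, with 16 positive and 9 negative, and the list as a whole was not tested. *Tyrobp*, the adaptor DAP12, had a log2FC of 1.47 (adjusted p = 2.83e-06 by limma), the vinculin gene *Vcl* 1.10 (adjusted p = 0.00113) and the integrin-linked kinase gene *Ilk* 1.05 (adjusted p = 8.99e-05). The focal adhesion kinase gene *Ptk2* was lower at -1.70 (adjusted p = 0.00515). *Parvb*, encoding beta-parvin of adhesion sites, did not differ by subset beyond its error (0.11, adjusted p = 0.537) but was called lower in T2DM than in T1DM, at -1.30 (adjusted p = 0.00832 by limma).

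Of 13 genes measured from the ligand list, 2 were called higher in Ly6Chigh MCs and 1 lower, where 12.1% of all genes were called in either direction. The list also held *Cd151*, whose product is a membrane partner of integrins and not a ligand, and which was not called. The fibronectin gene *Fn1*, whose product is the ligand of alpha5 beta1 and alpha4 beta1, was 12.26 and 12.24 in CT Ly6Chigh, 12.99 in T1DM Ly6Chigh and 13.74 in T2DM Ly6Chigh MCs. It was 8.86 to 8.97 in the 4 Ly6Clow libraries, and the pooled log2FC was 3.90 (adjusted p = 4.35e-06 by limma). The complement gene *C3*, whose cleaved product binds Mac-1 and CD11c, was higher by 3.24 (adjusted p = 6.83e-07). The E-cadherin gene *Cdh1* was lower at -3.37 (adjusted p = 0.00111) on low values of -0.69 to 4.91. Of 10 other adhesion receptors 2 were called, against the same 12.1%. *Sirpa*, the CD47 receptor, was higher at 1.16 (adjusted p = 5.76e-05) and *Spn*, the sialomucin CD43, lower at -1.18 (adjusted p = 0.00119). *Fn1* and *Spn* are also on the MC marker lists.

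Of 9 transcription factor genes of the myeloid lineage, 2 were called higher in Ly6Chigh MCs and 0 lower in the pooled test by limma, against 5.37% and 6.76% of all genes. *Cebpa* had a log2FC of 2.62 (adjusted p = 1.2e-05 by limma) and *Cebpd* 2.20 (adjusted p = 1.82e-05). *Spi1*, encoding PU.1, was just under the fold limit in the pooled test at 0.98 (adjusted p = 2.11e-05) and was called in CT mice alone at 1.06 (adjusted p = 0.00385).

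**Figure D5:**
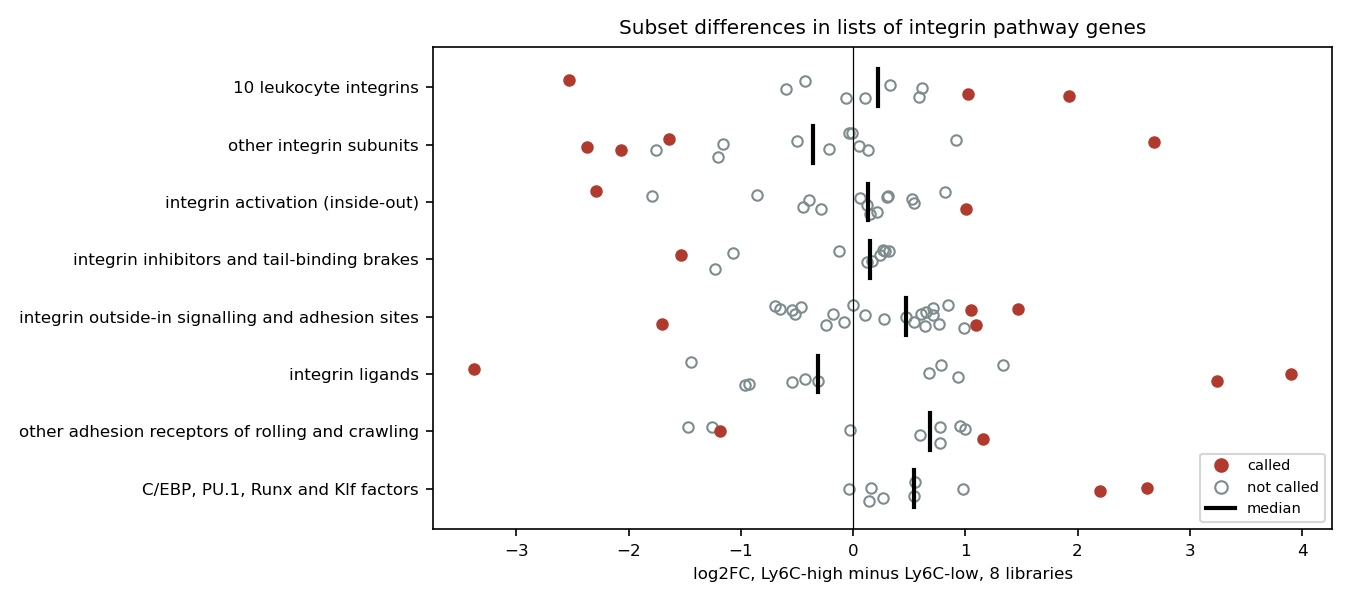
Pooled log2FC, Ly6Chigh minus Ly6Clow (horizontal axis), of each gene in the 10 integrins and in 7 lists of related genes (rows, with points spread vertically for legibility). Filled red points were called, open grey points were not, and black bars are medians. The outside-in signalling list has 3 called points above 1, 1 below -1 and a median of 0.47.

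As a description, each gene was set against the genes whose log2 values averaged 5 or more by Pearson r of the log2 values over the 8 libraries. *Itgam* was most like *Pigt* (0.997), *Glipr1* (0.997) and *Ftl1* (0.995). *Itgax* was most like *Etnk1* (0.989), *Bin1* (0.987) and *Syk* (0.987), and *Itga5* like *Apaf1* (0.993), *Map2k2* (0.990) and *Mid1ip1* (0.990). *Itga6* was closest to *Mrpl24* (0.994) and *Ints6* (0.978). *Itgal* had the weakest best match of the 10, *Prkch* at 0.925. With 8 libraries that split by subset, high r values are common, and no test was made.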

How the data were processed

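Before deposit, the authors pseudoaligned the reads with Kallisto 0.45 and, under R 3.6.1, summarized transcripts to genes with tximport 1.12.3. The submitters' processing notes give mm10. The deposited values are on a log2 scale. Their normalization, low-value filter and any adjustment between sequencers are not given in the sources used here. They hold no counts, so the depth behind each value is unknown. A spreadsheet had turned 21 symbols into dates.

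Here, limma 3.58.1 (lmFit, eBayes with trend) in R 4.3.3 was fitted to all 16486 genes, with Benjamini-Hochberg adjustment over all of them. Mouse group or subset was the covariate, but the CT fit had none and the interaction fit took both diabetic models as a single group. Calls required an adjusted p under 0.01 and an absolute log2FC above 1. Genes called in the pooled test, up to 3 per direction from each list, were named, beside all 10 integrins and other subunits, and 1 gene that this rule includes is not reported here. *Tln1*, *Fermt3*, *Rapgef1*, *Spi1*, *Parvb*, *Cx3cr1*, *Ccr3*, *Retnlg*, *Cxcr2*, *S100a8* and *Cd3d* were picked after their values were seen. The integrins and lists were chosen with earlier results of these data known. The steps were tested on simulated data. Coding lengths came from GENCODE M21. Marker sums were taken after raising 2 to the values. The numbers of the CT replicates did not pair the libraries (r = 0.00892 between their deviations across all genes and 0.0769 across the 5228 whose log2 values averaged 5 or more).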

Additional observations from a re-analysis of the deposited data

How the results depend on the processing

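The fits were repeated on 12527 genes whose log2 values averaged 1 or more (the filter), with 1 added on the linear scale, after quantile normalization, after rescaling to an equal sum, without the variance trend, at an adjusted p limit of 0.05, with a block for the replicate number, without any 1 CT library and without either diabetic model. Rescaling moved the all-gene median of the pooled log2FC from -0.082 to -0.381 and the called split from 886 higher and 1115 lower to 503 and 1769. In CT it moved the median from -0.087 to -0.372 and the split from 346 and 235 to 207 and 360. The filter made the pooled split 884 and 866, quantile normalization made the CT split 352 and 352, and the limit of 0.05 made it 834 and 1102. *Itga5* and *Itgax* kept their direction and call in the pooled test under every alternative run, at 1.63 to 2.04 and -2.83 to -2.27. *Itgam* kept its direction at 0.60 to 1.12 and lost its call under quantile normalization (0.60), rescaling (0.73) and without T2DM (0.92). The causes of these changes were not tested.

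In CT mice 581 genes were called, against 1089 with the filter, 1936 at 0.05, and 0 without the trend, with the replicate block or without any 1 CT library (0 to 0), where 4651 to 5810 had an unadjusted p under 0.05. Of the 10 integrins, 1 was called there, 2 with the filter or at 0.05 (*Itgax* added), and 0 without the trend, with the block and without any 1 CT library (0 to 0). T1DM minus CT called 2 genes and the interaction 3 at 0.05, against 0. T2DM minus CT called 49 genes, 9 without the trend, 105 at 0.05, 13 with the replicate block, 17 to 21 without 1 CT library and 30 without T1DM. T2DM minus T1DM called 97 genes, 26 without the trend, 253 at 0.05, 62 with the replicate block and 57 to 84 without 1 CT library. *Itga6* was the integrin called, and the number was 0 without the trend and 0 to 1 without 1 CT library, the loss being without CT_Ly6Clow replicate 1. The block changed no other call among the 10 than that of *Itga5* in CT mice. With 1 added, genes past 2-fold fell to 431 and 463 in T1DM Ly6Chigh and Ly6Clow, 957 and 696 in T2DM Ly6Chigh and Ly6Clow against CT, and 3141 between the T2DM subsets.

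Some reversed differences had a 95% interval that did not include 0 as deposited, among them *Itga4* and *Itgal* in CT and *Itgb2* in the pooled test. Under quantile normalization, *Itgal* (-0.162) and *Itga4* (-0.077) reversed in CT, *Itgb2* (-0.085) and *Itga4* (-0.362) in the pooled test, *Itgal* (-0.008), *Itga4* (-0.013) and *Itga5* (-0.037) in T1DM minus CT, *Itgam* (-0.027) and *Itgb2* (-0.004) in T2DM minus T1DM, and *Itgam* (-0.011) and *Itgb1* (0.027) in the interaction. Under rescaling, *Itgal* (-0.035) reversed in CT, *Itga4* (-0.193) in the pooled test, *Itgal* (-0.027) and *Itga5* (-0.046) in T1DM minus CT, and *Itgb7* (-0.009) in T2DM minus CT. With the replicate block, *Itga5* (-0.042) reversed in T1DM minus CT. Without T1DM, *Itgal* was 0.106 in the pooled test and *Itga5* -0.148 in the interaction. Without T2DM, *Itgam* was -0.233 and *Itgb7* 0.073 in the interaction. Without 1 CT library, *Itga5* ran from -0.041 to 0.104 and *Itgal* from -0.038 to 0.101 in T1DM minus CT, *Itgb2* from -0.067 to 0.004 in T2DM minus CT, and *Itgb1* from -0.093 to 0.029 in the interaction.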

Other observations

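Basophil and mast cell markers were uneven among the Ly6Clow libraries, which enter every comparison of the subsets. The summed linear value of 7 markers was 13.6 and 18.5 in CT Ly6Clow, 47.8 in T1DM Ly6Clow and 133 in T2DM Ly6Clow MCs, and 5.37 to 16.5 in the Ly6Chigh libraries. In the pooled test all 7 were lower in Ly6Chigh MCs, 1 of them called by limma, with a median log2FC of -2.02. The sum of 8 neutrophil markers was 306 in T2DM Ly6Clow MCs, against 146 to 158 in the other Ly6Clow libraries. Eosinophil markers were 59.8 to 80.4 in Ly6Clow and 6.64 to 12.9 in Ly6Chigh libraries (4 markers). Most of this sum was *Il5ra*, at 5.80 to 6.13 in Ly6Clow and 1.69 to 2.62 in Ly6Chigh libraries. All 4 were lower in Ly6Chigh MCs in the pooled test, but only 1 was called by limma. In CT mice *Ccr3* ran the other way, at 2.36 and 1.86 in Ly6Chigh against 1.65 and 0.96 in Ly6Clow. T cell markers were 80.8 to 104 in Ly6Clow and 36.6 to 49.7 in Ly6Chigh libraries (12 markers), with *Cd247* the most abundant. In the pooled test 11 were lower in Ly6Chigh MCs, 2 of them called by limma, and 1 was higher. *Cd3d* did not separate the CT subsets, at 2.49 and 1.49 in Ly6Chigh and 2.19 and 2.19 in Ly6Clow. Plasmacytoid dendritic cell markers were 147 to 251 in Ly6Chigh and 305 to 369 in Ly6Clow libraries (5 markers), with *Tcf4* the most abundant. In the pooled test 4 were lower in Ly6Chigh MCs, 1 of them called by limma, and 1 was higher.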
